A study of Homo sapiens with 73 samples.

Results

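CHLA-9 cells come from an established line of Ewing sarcoma, a bone and soft tissue tumour driven by the fused transcription factor EWSR1-FLI1. The comparison described here follows the same cultures from their first to their second course of VDC, the combination of vincristine, doxorubicin and cyclophosphamide. It uses 10 of the 73 libraries of the series: treated lineages R1, R3, R4, R6 and R7 at time point 1, after the first VDC course, and again at time point 3, after the second. The libraries were taken by group and lineage number in the labels, as the lineages sequenced at both time points. No measured value enters that rule, although earlier results of these data were known when the comparison was set up.

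All lineages of the experiment were set up from the 1 untreated line. Lineages R1 to R7 received VDC and EC (etoposide with cyclophosphamide) in turn, each for 5 days at the concentration giving 70% effect, and regrew without drug before RNA was taken. Time point 3 therefore follows 1 EC and 1 further VDC course after time point 1, and values describe regrown cultures rather than cells in drug. R8, R9 and R10 were handled alike with the solvent DMSO and supply the background of drug-free culture. Their time points 1, 2 and 4 are used, since the series has no DMSO library at time point 3. A lineage is 1 culture followed through time, every culture descends from 1 cell line, and RNA of the whole culture was measured, so fewer cells of a type and less RNA per cell cannot be told apart.

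Vincristine blocks microtubule assembly, doxorubicin poisons topoisomerase II and intercalates into DNA, and cyclophosphamide gives alkylating metabolites that crosslink DNA. Cells with working p53 answer DNA damage by raising its target genes, among them brakes of the cell cycle and triggers of mitochondrial cell death. Immediate early genes are a separate class, switched on within minutes by growth factors, stress or fresh medium and off again soon after.

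Of the markers of Ewing sarcoma cells, EWSR1 (1671 to 2803), FLI1 (794 to 1187), NR0B1 (2255 to 2638), BCL11B, PRKCB, CCND1, STEAP1 and LIPI were abundant in all 10 libraries. NKX2-2 was low (21.3 to 41.6), and CD99, a surface antigen that usually marks this tumour, was listed at 1.60 or less in every library. The cause of the CD99 value was not tested, so it is not read as absence of the antigen. Values are quantile-normalized counts and carry no library depth, so no counting interval can be given. Of the markers of other cell types, 6 of 14 epithelial genes (EPCAM and CDH1 among them), 9 of 13 blood genes (CD3E and CD14 among them) and 6 of 16 endothelial, muscle and fibroblast genes (PECAM1 and MYOD1 among them) stayed under 10 in all 10 libraries. The summed epithelial list ran from 184 to 241 at time point 1 and from 80.0 to 158 at time point 3. The summed blood list ran from 461 to 694 and then from 412 to 523, and the endothelial, muscle and fibroblast list, which holds genes abundant in these cells, from 8466 to 9951 and then from 7747 to 10836. The part of these markers in the results was not tested.

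Some libraries stood apart from their group. Over the 14565 genes tested, the library labelled R1 at time point 3 correlated at r = 0.942 to 0.961 with the other treated libraries of that time point, which reached 0.969 to 0.987 among themselves. Its nearest library was R9 in DMSO at time point 2 (r = 0.986). The library labelled R1 at time point 1 lay nearest the parental library (r = 0.979), at 0.973 to 0.978 with the other treated libraries of its time point, which held 0.991 to 0.993 among themselves. Likewise, the library labelled R8 in DMSO at time point 1 correlated at 0.986 to 0.991 with treated time point 1 of R2, R3, R4, R6 and R7, against 0.973 with R9 and R10 in DMSO. The library labelled R1 at time point 4 was among the nearest to R3 (0.985) and R4 (0.986) at time point 3. These correlations are across genes and describe the libraries only. Whether the labels of these libraries are right was not tested, so R1 and R8 below stand for the libraries labelled so. Main results are given with and without them.

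The first question was which genes differed between the second and the first course within a lineage. TXNIP, an inhibitor of thioredoxin and of glucose uptake, HRK, a BH3-only activator of cell death, and the neuronal transcription factor NEUROD6 rose in all 5 lineages. The orphan nuclear receptor NR4A1, the cytokine signalling inhibitor SOCS3, the DNA damage sensor DDB2 and the pore-forming death protein BAX fell in all 5. In limma with lineage as a block and Benjamini-Hochberg adjustment, 180 of 14565 genes passed an adjusted p of 0.05 (1.24%), 96 of them higher (0.659%) and 84 lower (0.577%) at the second course. All 180 moved the same way in each of the 5 lineages, and the smallest adjusted p was 0.00830.

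Without R1 the same fit called 3800 genes (26.1%), 2021 higher (13.9%) and 1779 lower (12.2%), and these included all 180 in the same direction. Of the 3800, 3709 moved the same way in R3, R4, R6 and R7. Leaving out R3, R4, R6 or R7 instead, with R1 kept, left 0 genes past the limma threshold, with 1945 to 2483 at an unadjusted p under 0.05. All 180 kept their sign, at an unadjusted p under 0.05, in each of these fits. These genes were chosen with the same lineages and moved the same way in all 5. Leaving a lineage out could therefore not change their sign. Their direction and low unadjusted p in the reduced fits, with or without R1, are thus no separate evidence. Below, a gene "passed" over 5 lineages or over 4 lineages (without R1), as stated.

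**Figure D1:**
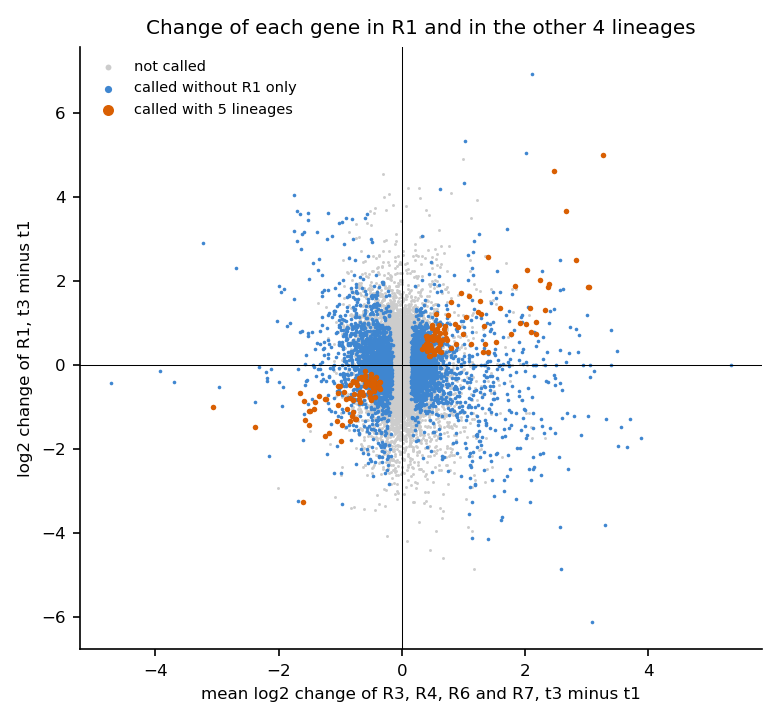
Each point is 1 of 14565 genes: the log2 change from time point 1 to time point 3 in R1 (vertical) against the mean log2 change of R3, R4, R6 and R7 (horizontal). The 180 genes called over 5 lineages (orange) lie in the quadrants where both agree in sign, while genes called over the other 4 lineages only (blue) are spread over positive and negative changes in R1.

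Change profiles of R3, R4, R6 and R7 correlated with each other across genes at r = 0.42 to 0.714 over 6 pairs, whereas that of R1 lay between -0.148 and -0.00369 with them. With the 5 treated profiles, that of R8 in DMSO lay between -0.00859 and 0.627. The profile of R9 lay between -0.0382 and 0.342 with them, and that of R10 between -0.00795 and 0.195. Drug-free R8 thus reached into the range of R3, R4, R6 and R7 among themselves. The root mean square log2 change over all genes tested was 0.817 in R1, 0.507 in R3, 0.536 in R4, 0.656 in R6 and 0.654 in R7. For DMSO it was 0.568 in R9 and 0.540 in R8, each from the mean of time points 2 and 4 minus 1, and 0.455 in R10 from time point 2 minus 1. The DMSO periods thus differ from the treated one, and R8 and R9 average 2 later libraries where treated lineages have 1. The treated mean of 0.634 ± 0.123 (SD, n = 5) exceeded the DMSO mean of 0.521 ± 0.0589 (SD, n = 3) by 0.113, which did not pass a 2-sided exact permutation test over 56 splits (p = 0.232). Without R1 the difference was 0.0676 (exact permutation p = 0.286, 35 splits), and without R1 and R8 it was 0.0772 (exact permutation p = 0.267). With 4 treated and 2 DMSO lineages, this last test has too few splits to reach a p under 0.05, so it decides nothing.

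TXNIP had the smallest p of the higher genes. Its values at time point 1 were 797 in R1, 823 in R3, 837 in R4, 701 in R6 and 685 in R7. At time point 3 they were 1849, 2028, 1767, 1689 and 1963 in the same order. The 2 sets did not overlap, and the rise was 1.28 ± 0.08 on the log2 scale (SE, adjusted p = 0.00830). TXNIP lies on chromosome 1 from 145992435 to 145996579 (GRCh38.p14, RefSeq, as for all positions here). In DMSO lineages it read 764, 1331 and 1372 at time point 1 in R8, R9 and R10, 1402, 2448 and 2053 at time point 2, and 575 and 473 at time point 4 in R8 and R9.

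HRK, encoded on chromosome 12 from 116856144 to 116881441, read 66.1, 85.1, 108, 70.8 and 123.5 in R1, R3, R4, R6 and R7 after the first course. After the second it read 241, 390, 348, 613 and 733. The time points did not overlap, R6 and R7 reached the highest values, and the log2 rise was 2.27 ± 0.21 (SE, adjusted p = 0.0376). The parental library had 4.66, so HRK already stood above it after the first course in all 5 lineages. In DMSO it read 71.5, 99.8 and 85.8 at time point 1 in R8, R9 and R10, 114, 258 and 199 at time point 2, and 243 and 88.6 at time point 4 in R8 and R9.

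NEUROD6 (chromosome 7, 31337465 to 31340726) was even between lineages at time point 1, with 486, 443, 547, 505 and 561. At time point 3 it read 837, 1386, 2058, 3352 and 2433, lowest in R1 and highest in R6 (log2 1.84 ± 0.24, SE, adjusted p = 0.0407). CRACD, a regulator of actin capping, went from 40.7 in R1 and 85.1 to 112 in the other lineages to 152 in R1 and 309 to 386 in the others (log2 1.85 ± 0.13, adjusted p = 0.0106). For neither gene did the time points overlap.

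The 10 largest rises among the 96 also held IGDCC4 (2.76 log2), an immunoglobulin superfamily receptor, KCNN3 (2.08), a calcium-activated potassium channel, and C1QTNF2 (1.93). CAMK2B (1.81), the beta subunit of calcium/calmodulin-dependent kinase II, RPS6KA2 (1.73), a ribosomal S6 kinase, REEP1 (1.64), which shapes endoplasmic reticulum tubules, and ACSS1 (1.57), a mitochondrial acetyl-CoA synthetase, completed them. IGDCC4 climbed from 5.34 to 16.9 across the lineages to 34.8 to 206. REEP1 differed between lineages already at the first course, with 250 in R1 against 879 to 1040 in the other 4, and reached 1492 to 3275. The bone morphogenetic protein BMP6 (1.33 ± 0.14) and NOPCHAP1 (0.60 ± 0.06), a chaperone of snoRNP assembly, were among the 5 higher genes with the smallest p-values (adjusted p = 0.0406 for each).

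Among the falls, NR4A1 (chromosome 12, 52022832 to 52059503) was the largest. It read 383 in R1, 1506 in R3, 1018 in R4, 1124 in R6 and 1044 in R7 at time point 1, and 191, 98.5, 107, 240 and 145 at time point 3. Time points did not overlap, R1 started lowest, and the log2 change was -2.65 ± 0.38 (SE, adjusted p = 0.0407). SOCS3 (chromosome 17, 78356778 to 78360925) went from 65.5, 351, 240, 364 and 335 to 22.8, 51.0, 24.1, 164 and 63.0 (log2 -2.21 ± 0.32, adjusted p = 0.0407). Here R6 at the second course (164) lay above R1 at the first (65.5), while every lineage itself declined.

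CISH (-1.35 log2), a second inhibitor of cytokine signalling, and IER2 (-1.41), an immediate early gene, belonged to the 10 largest falls as well. So did KRT17 (-1.93), BTG3-AS1 (-1.51), MIR34AHG (-1.49), the host transcript of the p53-induced miR-34a, the kinase gene PLK3 (-1.46), the ligand gene WNT3 (-1.44) and the histone H3 lysine methyltransferase gene NSD1 (-1.42). BTG3-AS1 is antisense to BTG3, and without stated strand use in counting their reads cannot be told apart. KRT17, a keratin of basal epithelia, fell from 88.3 to 137 in the 5 lineages to 8.60 in R1 and 23.4 to 40.3 in the others, beside epithelial markers EPCAM and CDH1 under 10 throughout. Another epithelial marker, ESRP1, changed the other way without passing (log2 1.46, adjusted p = 0.0705). DMSO lineages had 16.4 (R9), 24.4 (R10) and 91.7 (R8) of KRT17 at time point 1. CHTF18 (-0.88 ± 0.07), a loader of the replication clamp, had the smallest p of the lower genes (adjusted p = 0.0245), followed by WDR90 (-0.87) and C21orf58 (-0.93).

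**Figure D2:**
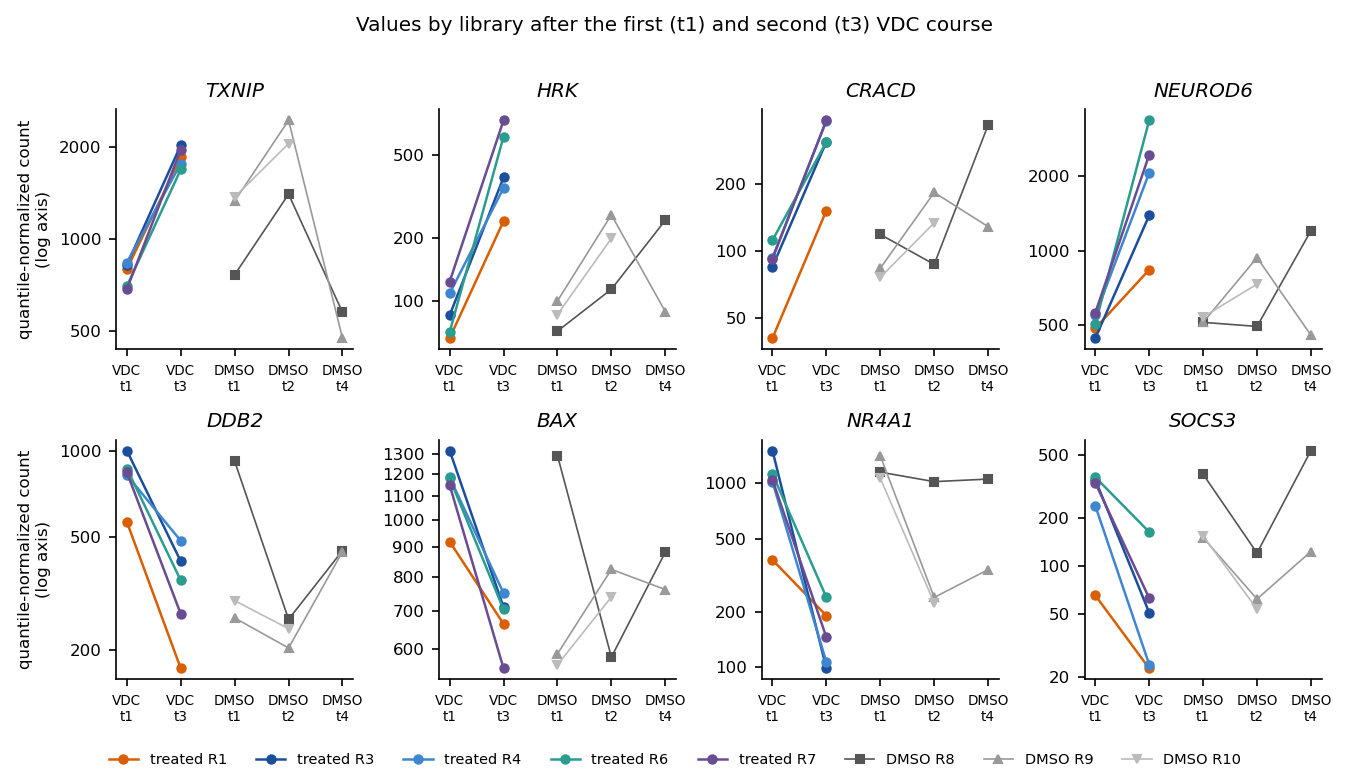
Quantile-normalized counts (log axis) of 8 genes in the treated lineages at time points 1 and 3 (coloured lines, 1 per lineage) and in DMSO lineages at time points 1, 2 and 4 (grey). TXNIP, HRK, CRACD and NEUROD6 rise and DDB2, BAX, NR4A1 and SOCS3 fall in all 5 treated lineages, and DDB2 and BAX read 917 and 1292 in R8 in DMSO at time point 1 against 260 to 298 and 565 to 590 in R9 and R10.

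The p53 targets formed the list with most falls over 5 lineages. DDB2, which recognises damaged DNA, BAX, PLK3 and the nuclease AEN passed as lower, and 0 of 28 tested targets as higher, against 0.577% lower and 0.659% higher of all genes (limma; 17 of the 28 had an unadjusted p under 0.05). Over 4 lineages 16 were lower and 2 higher, against 12.2% and 13.9% of all genes. These shares are the background for the counts of every list below. The list's median log2 change was -0.35 over 5 and -0.43 over 4 lineages, beside 0.0052 and 0.014 over all genes tested. By lineage the median was -0.38 in R1, -0.66 in R3, -0.083 in R4, -0.32 in R6 and -0.59 in R7.

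DDB2 (chromosome 11, 47214454 to 47239217) read 563 in R1, 999 in R3, 821 in R4, 864 in R6 and 839 in R7 after the first course. After the second it read 173, 410, 483, 351 and 268, below every value of the first (log2 -1.34 ± 0.14, SE, adjusted p = 0.0406). BAX (chromosome 19, 48954875 to 48961798) dropped from 920, 1318, 1185, 1181 and 1150 to 664, 709, 750, 703 and 557 without overlap (log2 -0.76 ± 0.09, adjusted p = 0.0406). AEN changed by -0.89 ± 0.13 and PLK3 by -1.46 ± 0.21 (adjusted p = 0.0407 for both).

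GADD45A, a stress sensor that passed over 4 lineages only (-1.37 ± 0.17, SE, adjusted p = 0.00142), read 105 in R1 at time point 1 and 98.1 at time point 3, but 207 to 312 and 71.1 to 132 in the other 4. CDKN1A, an inhibitor of cyclin-dependent kinases, had 510, 1387, 889, 960 and 782 after the first course and 50.8, 485, 784, 636 and 263 after the second. It did not pass over 5 lineages (log2 -1.43 ± 0.41, adjusted p = 0.108) and passed over 4 (-0.96 ± 0.21, adjusted p = 0.0123). FAS, a death receptor, and BTG2, an antiproliferative gene, were the 2 higher members over 4 lineages, at log2 0.60 and 0.20. MDM2, the ubiquitin ligase that degrades p53, lay at 2161 to 2646 at time point 1 and 2000 to 2570 at time point 3 (log2 -0.03 ± 0.07, adjusted p = 0.828).

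Drug-free cultures differed among themselves in these genes. For CDKN1A the library labelled R8 at time point 1 had 1229 against 53.01 in R9 and 71.2 in R10. At time point 2 the 3 lineages ran from 62.1 to 92.7, and at time point 4 R8 had 1328 and R9 551. The p53 list's median change was 0.35 in R9, -0.026 in R10 and -0.52 in R8. Over the treated and DMSO lineages without R1 and R8, a fit of the difference called 8 of 28 targets with a lower and 1 with a higher change in treated lineages. BAX was among the lower (-1.24, adjusted p = 0.00961). Of all genes, 1.79% were lower and 2.48% higher in that fit.

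DDB2 and AEN carry stretches near their start sites that match the p53 half-site, a sequence of 10 bases that the factor binds in pairs. The stretch of DDB2 is printed because its match is doubled, and that of AEN because the match lies just upstream of a start site, both with the matches in capitals. The start site of AEN lies inside the annotated gene (chromosome 15, 88604683 to 88632281), and that of DDB2 is the downstream one of 2 in the RefSeq table. Positions are counted from these start sites in the RefSeq table (GRCh38.p14), and sequences read 5′ to 3′ on the plus strand.
DDB2, chr11:47214974-47215003: ggtttGAACAAGCCCtGGGCATGTTTggcg
AEN, chr15:88621090-88621339: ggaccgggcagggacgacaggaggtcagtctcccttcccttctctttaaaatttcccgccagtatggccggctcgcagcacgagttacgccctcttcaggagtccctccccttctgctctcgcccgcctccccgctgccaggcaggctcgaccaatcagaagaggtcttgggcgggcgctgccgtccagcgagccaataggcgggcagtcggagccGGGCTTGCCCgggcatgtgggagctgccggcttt
In DDB2 the matches span bases 6 to 15 and 17 to 26 after the start, and in AEN bases -34 to -25. Searched on both strands in windows of 250 bases before to 50 after each start, the half-site occurred in 17.1% of the 35 windows of p53 targets (those of AEN, DDB2, FAS, FDXR, RPS27L and SESN1) and in 6.63% of all 35116 windows. Of the 28 tested targets, 23 had a window. A match is a description of letters and not a shown binding site. Of the targets with a match, AEN, DDB2, FDXR, RPS27L and SESN1 changed by log2 -0.89, -1.34, -0.69, -0.67 and -0.40 with R1 kept. FAS, which also holds one, changed by 0.18 with R1 kept and by 0.60 without R1, so R1 lay below the mean of the other lineages. Whether the matches bear on these changes was not tested.

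Immediate early genes were lower as well. NR4A1 and IER2 passed as lower over 5 lineages (0.577% of all genes) and 17 of 26 over 4 (12.2% of all genes), with 0 higher in limma in either fit (16 and 18 at an unadjusted p under 0.05 in either direction). The list's median was -0.66 over 5 and -0.70 over 4 lineages, and by lineage it ran from -0.98 in R4 to -0.44 in R1. FOS, a subunit of the AP-1 transcription factor, read 1415 in R1 and 7752 to 9032 in the other 4 lineages at time point 1. At time point 3 it read 1077 in R1, 301 in R3, 301 in R4, 1914 in R6 and 913 in R7. The step was thus small in R1 and large elsewhere (log2 -3.03 ± 0.61, adjusted p = 0.0566 over 5; -3.69 ± 0.36, adjusted p = 0.000629 over 4 lineages).

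FOSB (-4.71 log2), EGR3 (-3.93), EGR1 (-2.97), JUNB (-2.38) and JUN (-2.21), all transcription factors of this class, were among the 10 largest falls over 4 lineages (chosen by the naming rule of the main comparison, applied after the data were seen). In DMSO lineages, FOS read 8475, 10120 and 8191 at time point 1 and 8645, 1442 and 1223 at time point 2 in R8, R9 and R10, so R8 stayed level where R9 and R10 were lower. In the limma fit of the difference between arms without R1 and R8, 0 of the 26 passed (5 at an unadjusted p under 0.05), against 4.26% of all genes. This list had a median change of -1.04 in R10, -0.35 in R9 and -0.086 in R8.

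The promoter of EGR1 holds matches to the CArG box, a sequence that serum response factor binds. Binding was not tested here. It is printed because EGR1 has 2 of them in the window, in capitals, at bases -105 to -96 and -83 to -74.
EGR1, chr5:138465229-138465478: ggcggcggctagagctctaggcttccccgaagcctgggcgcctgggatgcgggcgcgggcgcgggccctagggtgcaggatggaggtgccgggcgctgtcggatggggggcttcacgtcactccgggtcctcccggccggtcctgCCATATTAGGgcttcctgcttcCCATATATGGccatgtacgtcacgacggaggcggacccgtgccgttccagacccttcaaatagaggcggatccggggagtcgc
The CArG box occurred in 2 of the 24 windows of tested immediate early genes (8.33%; EGR1 and EGR2), which covered 20 of the 26 genes, and in 1.29% of all windows. Both genes passed as lower over 4 lineages only.

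**Figure D3:**
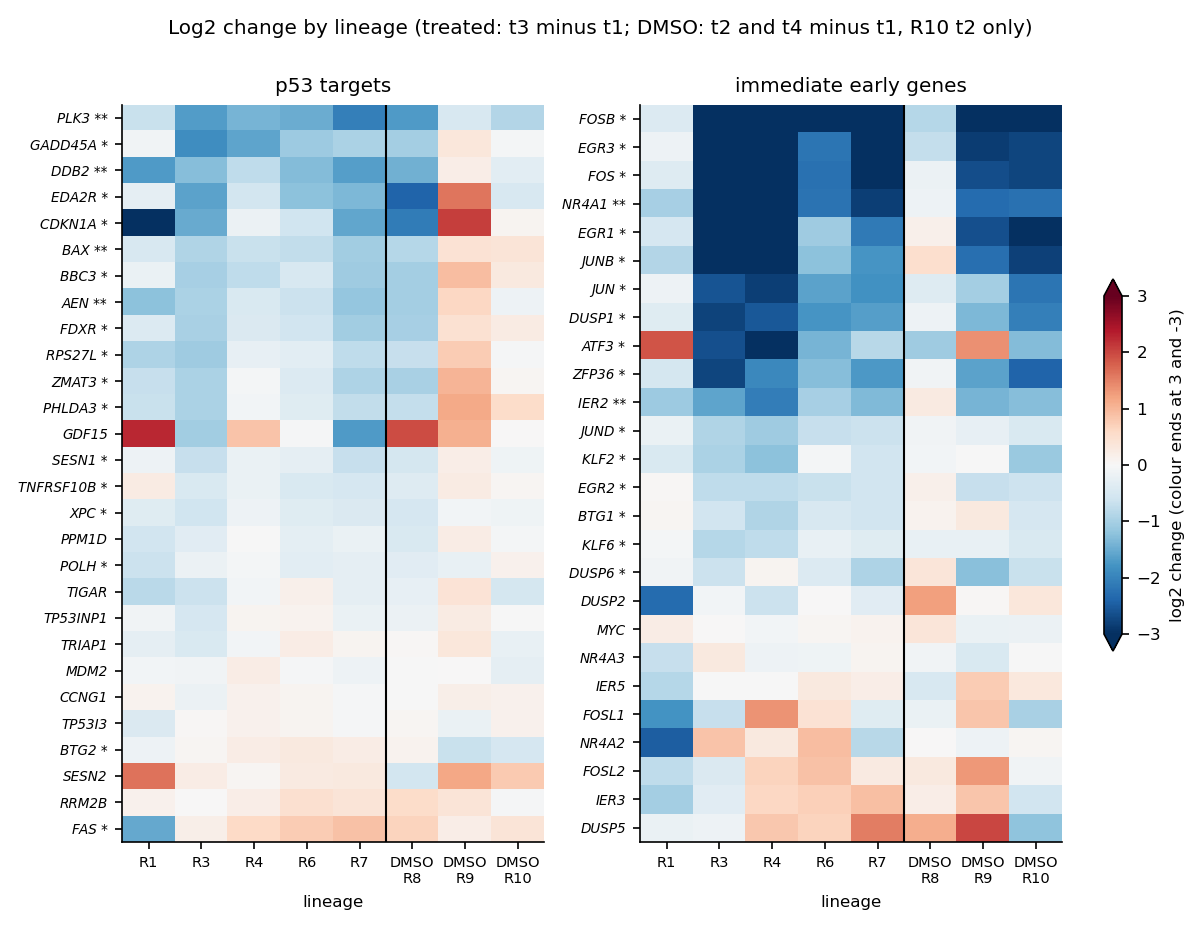
Log2 change of each tested p53 target (left) and immediate early gene (right) by lineage: treated R1, R3, R4, R6 and R7 (time point 3 minus 1) and DMSO R8 and R9 (mean of time points 2 and 4 minus 1) and R10 (time point 2 minus 1); 2 asterisks mark genes called over 5 lineages, 1 asterisk genes called without R1 only. Blue columns of R3, R4, R6 and R7 contrast with paler R1 cells for FOS, FOSB and EGR3, and DMSO R8 is blue for most p53 targets where R9 is red.

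In the BCL2 family, HRK rose and BAX fell over 5 lineages, 1 gene each way of 22 tested. Over 4 lineages 5 were higher and 4 lower, where 13.9% and 12.2% of all genes were. BOK, a BAX-like effector, was the second largest of these (0.88 ± 0.23, SE, adjusted p = 0.0224), with 147 in R1 and 54.2 to 78.6 in the others at time point 1 and 46.8 in R1 and 90.8 to 205 in the others at time point 3. R1 thus moved against the other lineages for BOK and not for HRK.

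Genes of DNA replication and S phase were lower over 4 lineages in 15 of 32, with 0 higher (12.2% and 13.9% of all genes), and 0 of 32 passed over 5 (limma; 12 at an unadjusted p under 0.05; E2F1, POLE and LIG1 had adjusted p = 0.108, 0.0541 and 0.0637 there). POLE, the catalytic subunit of leading-strand polymerase, read 3586, 4009, 3860, 4338 and 4160 at time point 1 and 1422, 2930, 3038, 2516 and 2367 at time point 3. The largest drop was that of R1, and the log2 change over 4 lineages was -0.60 ± 0.08 (SE, adjusted p = 0.00229). E2F1, an activator of S phase genes, fell by 0.55 and the DNA ligase gene LIG1 by 0.53 on the log2 scale over 4 lineages. Medians of this list were -1.87 in R1 and -0.33 to -0.042 in the other 4 lineages, and -0.54 to -0.15 in DMSO lineages.

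The libraries labelled R1 stood apart in other proliferation genes. The median of 32 G2/M and mitosis genes was -1.57 in R1 and -0.15 to 0.015 in the others, and MKI67, a proliferation antigen, read 14660 and 2820 in R1 at the 2 time points. In the other lineages MKI67 read 9469 to 10970 and then 7593 to 9436. Over 5 lineages 0 of 32 passed in limma, with 3 at an unadjusted p under 0.05 (AURKB, a mitotic kinase, had the smallest p, at log2 -0.90 and adjusted p = 0.126; without R1 it fell, at -0.54 and adjusted p = 0.00169), and over 4 lineages 1 was higher and 5 lower.

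Of 32 homologous recombination and Fanconi anaemia genes, which mend crosslinks and double-strand breaks, FANCA alone passed over 5 lineages and 10 were lower over 4, with 0 higher in limma (18 at an unadjusted p under 0.05). The shares over all genes were 0.577% lower over 5 and 12.2% over 4. This list's median was also below 0 in drug-free culture, at -0.34 in R8, -0.19 in R9 and -0.10 in R10. It was -0.74 in R1 and -0.34 to -0.025 in the other treated lineages. In the limma fit of the difference to DMSO without R1 and R8, 1 of the 32 passed as lower and 0 as higher (6 at an unadjusted p under 0.05), against 1.79% and 2.48% of all genes. FANCA (chromosome 16, 89737549 to 89816647), part of the crosslink-sensing core complex, read 701, 960, 936, 1090 and 1166 after the first course and 287, 678, 706, 571 and 527 after the second (log2 -0.85 ± 0.14, SE, adjusted p = 0.0464). R7 and R1 lost most. FANCL (-0.55) and XRCC3 (-0.51) were the next largest falls over 4 lineages. FANCL in R1 went the other way, from 884 to 1742.

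Targets of the drugs and genes of their handling did not pass over 5 lineages. TOP2A, the doxorubicin and etoposide target of dividing cells, read 11040 in R1 and 7210 to 8444 in the others at time point 1, and 4190 in R1 and 6790 to 8806 in the others at time point 3 (log2 -0.31 ± 0.21, adjusted p = 0.432; without R1 -0.04 ± 0.05, adjusted p = 0.605). TOP2B (-0.07), TUBB (-0.08), ABCC1 (0.01) and SLFN11 (-0.06), the last a replication brake linked to sensitivity to DNA-damaging drugs, did not pass either (adjusted p from 0.562 to 0.962). Without R1, TUBB rose by 0.22 (adjusted p = 0.0354), and TOP2B (-0.06), ABCC1 (-0.10) and SLFN11 (0.0014) did not pass. The efflux pump gene ABCB1 was listed at 1.09 or less and ALDH1A3 at 4.74 or less in all 10 libraries, below the filter. With limma, 0 of 14 drug transporters, 0 of 11 topoisomerase and adduct repair genes and 0 of 22 genes of cyclophosphamide and anthracycline metabolism passed over 5 lineages, and each list had 2 genes at an unadjusted p under 0.05. Over 4 lineages 2 transporters rose and 4 fell, 1 topoisomerase list gene rose and 2 fell, and 4 metabolism genes rose and 2 fell. ABCC5 (-0.40), TOP3A (-0.41) and GSTA4 (0.37) had the smallest p of their lists over 5 lineages, and each passed without R1 (-0.56, -0.40 and 0.32).

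Tubulins and microtubule genes gave 0 of 20 calls over 5 lineages in limma (4 at an unadjusted p under 0.05), 6 higher and 1 lower over 4. TUBA4A, an alpha-tubulin, read 89.3, 81.4, 91.8 and 84.0 in R3, R4, R6 and R7 at time point 1 and 276, 224, 380 and 330 at time point 3, while R1 went from 164 to 60.2. The rise over 4 lineages was 1.77 ± 0.13 (SE, adjusted p = 0.000226), against 1.13 ± 0.49 over 5 (adjusted p = 0.243). The tubulin-glutamylating enzyme gene TTLL7 (2.87) and the microtubule-associated protein gene MAP2 (1.65) also passed over 4 lineages, both from low levels: MAP2 read 8.32 to 17.1 at time point 1 and 5.94 in R1 and 24.7 to 62.8 elsewhere at time point 3. TTLL7 was nearly level in R3 (7.51 and 7.90) and R1 (2.41 and 3.26), and its rise came from R4, R6 and R7.

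Values are counts per gene, so the fused transcript itself was not measured. Its partner genes EWSR1 (-0.24) and FLI1 (-0.06) did not pass over 5 lineages (adjusted p = 0.231 and 0.811), nor without R1 (-0.13 and 0.07). NR0B1, a direct fusion target, did not pass over 5 lineages (0.04, adjusted p = 0.771) or without R1 (-0.0019). Of 31 fusion-activated genes tested, 0 passed over 5 lineages in limma and 12 had an unadjusted p under 0.05, with TERT nearest (-1.23, adjusted p = 0.0556; without R1 -1.05, adjusted p = 0.00944), and 6 were higher and 11 lower over 4. The fusion-repressed list, largely matrix and cytoskeletal genes, had 1 of 28 higher over 5 lineages and 14 higher and 4 lower over 4, at a median of 0.17 and 0.34. ZEB1 (chromosome 10, 31318417 to 31529804), a repressor of epithelial genes, was that 1 gene and read 248, 269, 273, 266 and 300 before and 567, 438, 496, 433 and 493 after. Its values did not overlap and were highest in R1 (log2 0.83 ± 0.10, SE, adjusted p = 0.0406).

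Over 4 lineages the matrix glycoprotein TNC (1.78 ± 0.40, SE) had the largest rise of this list and the matricellular gene CCN1 (-1.31 ± 0.22) its largest fall (adjusted p = 0.0137 and 0.00494). TNC read 243, 150, 255 and 171 in R3, R4, R6 and R7 and then 315, 400, 877 and 2023, with the highest value in R7, but 86.6 and then 39.4 in R1. DMSO lineages had 51.1 (R9), 79.2 (R10) and 515 (R8) of TNC at time point 1, and 1959 (R8) and 1277 (R9) at time point 4. In the limma fit of the difference to DMSO without R1 and R8, 0 of 28 members had a higher and 4 a lower change in treated lineages (9 at an unadjusted p under 0.05). The shares over all genes in that fit were 2.48% higher and 1.79% lower.

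Among 16 adhesion genes 0 passed over 5 lineages in limma (4 at an unadjusted p under 0.05), and 3 were higher and 1 lower over 4. L1CAM, a neural adhesion molecule, read 8.00, 4.72, 7.599 and 0.613 in R3, R4, R6 and R7 and then 40.0, 37.1, 82.6 and 105 (log2 3.56 ± 0.56, SE, adjusted p = 0.00379), but 1.85 and 0.0271 in R1. ITGA3, an integrin subunit, followed at 1.29. Of 29 matrix and protease genes 8 were higher and 7 lower over 4 lineages and 0 over 5 in limma (7 at an unadjusted p under 0.05), where the urokinase receptor gene PLAUR was nearest (-1.02, adjusted p = 0.0505; without R1 -0.83, adjusted p = 0.00193). POSTN (3.39), listed below 1.1 in all 5 lineages at time point 1 and at 0.0271, 8.46, 0.841, 19.5 and 70.1 at time point 3, and MXRA5 (2.27) were the largest. Such fold values of genes near the floor depend on the pseudocount of 1.

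TGF-beta and activin genes had 7 higher and 3 lower of 21 over 4 lineages and 0 over 5 in limma (7 at an unadjusted p under 0.05). INHBA, the activin A subunit, read 1.60 to 4.72 in R3, R4, R6 and R7 and then 10.7 to 18.7, against 11.7 and 6.60 in R1 (1.91 ± 0.38, SE, adjusted p = 0.00862 over 4 lineages). The ligand gene TGFB2 (1.36) and the latent binding protein gene LTBP2 (0.99) followed. Each of the 3 declined in value in R1.

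EGFR, the epidermal growth factor receptor (chromosome 7, 55019017 to 55211628), was among the strongest differences between the other lineages and R1. It was listed at 0.0256, 0.0132, 8.58, 0.0129 and 0.0144 at time point 1 and at 0.0271, 3.31, 378, 171 and 95.9 at time point 3 in R1, R3, R4, R6 and R7. R1 thus stayed at the floor and R3 near it, while R4, R6 and R7 reached 95.9 or more, and over 4 lineages the gene passed (5.34 ± 0.75 on the log2(value + 1) scale, SE, adjusted p = 0.00241). The parental library and all DMSO libraries of time points 1 and 2 were at 0.0287 or less, and R8 in DMSO at time point 4 had 76.2. Other large rises over 4 lineages were KIAA1549 (3.11), the Notch-responsive repressor gene HEYL (3.03), the CaMKII inhibitor gene CAMK2N1 (2.83), the cardiac troponin gene TNNT2 (2.71), PADI2 (2.69), DTX4 (2.57) and SEMA3D (2.38).

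Further lists gave single calls over 5 lineages. In the MYC list of 12 genes, with 3 higher and 2 lower over 4 lineages, MYCL (1.25 ± 0.16) passed over 5 where MYC (0.07) and MYCN (-0.22) did not (adjusted p = 0.627 and 0.704). MYCL read 59.8 to 84.6 before and 115 to 259 after. In the hypoxia and glycolysis list PDK1 (0.88), a kinase that switches off pyruvate dehydrogenase, rose and the glucose transporter gene SLC2A3 (-1.31) fell, and over 4 lineages 8 rose and 3 fell of 28, with P4HA2 (2.57) and HK1 (1.72) largest. The synaptic gene SNAP25 fell (-1.15) among 16 neural genes, of which SYT1 (1.43) and SCG2 (1.38) rose over 4 lineages, where the list had 3 higher and 3 lower.

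Genes whose levels can vary with RNA quality and capture moved as well, though no measure of RNA quality was used here. All 13 mitochondrially encoded genes were lower over 4 lineages, at a median of -1.59, and 0 over 5 in limma, where 0 also had an unadjusted p under 0.05 (COX1 nearest, adjusted p = 0.335). The list's median was 3.12 in R1 and -1.73 to -1.49 in the other 4, and -1.43, 0.20 and 1.70 in R8, R9 and R10. ATP6, an ATP synthase subunit, read 2638 in R1 and 5645 to 7593 in the others at time point 1, and 24360 in R1 and 1541 to 2442 in the others at time point 3. Of 36 ribosomal protein genes 20 were higher over 4 lineages and RPL7 over 5 (0.50 ± 0.08, SE). Of 21 replication-dependent histone genes, whose mRNAs lack poly(A) tails, H1-3 fell over 5 lineages (-0.86 ± 0.13) and 10 over 4. The part of these shifts in the other results was not tested. Near-identical copies of ribosomal and histone genes can share reads, so single members are uncertain.

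**Figure D4:**
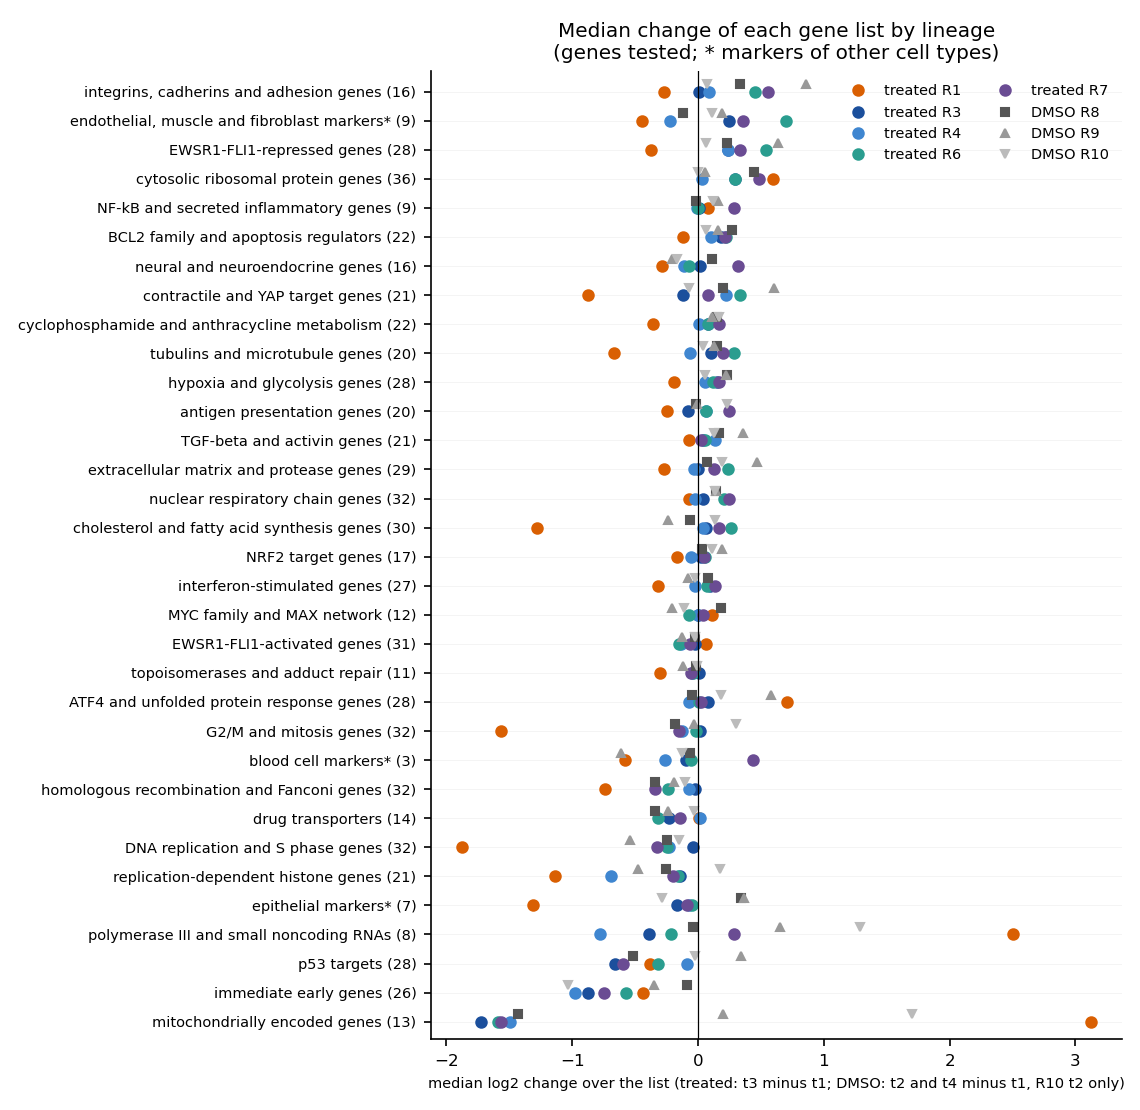
Median log2 change of each gene list (number of tested genes in brackets) in each treated lineage (circles, time point 3 minus 1) and DMSO lineage (grey symbols, mean of time points 2 and 4 minus 1 for R8 and R9, time point 2 minus 1 for R10). R1 stands away from R3, R4, R6 and R7 for mitochondrially encoded (3.12), S phase (-1.87), G2/M (-1.57) and cholesterol synthesis genes (-1.28), and 6 lists lie below 0 in all 5 treated lineages (p53 targets, immediate early, S phase, homologous recombination and histone genes and epithelial markers) and ribosomal protein genes above 0.

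Of 7 tested epithelial markers KRT17 fell over 5 lineages, while over 4 lineages 1 passed in each direction, ESRP1 higher (1.45, adjusted p = 0.0225) and KRT17 lower (-1.60). The others did not pass over 4 lineages: KRT18 (1.08) and KRT8 (0.84) lay above 0, and CLDN4 (-0.52), MUC1 (-0.44) and ESRP2 (-0.25) below it. The remaining lists had 0 calls over 5 lineages in limma, where 1 to 12 genes of each had an unadjusted p under 0.05. Interferon-stimulated (5 higher and 3 lower of 27 over 4 lineages), antigen presentation (2 and 2 of 20), NF-kB (2 and 1 of 9), contractile and YAP target (4 and 2 of 21), NRF2 (3 and 2 of 17) and nuclear respiratory chain genes (4 and 1 of 32) lay at medians between -0.015 and 0.21 over 4 lineages. ATF4 and unfolded protein response genes had 7 higher and 5 lower of 28 and cholesterol and fatty acid synthesis genes 10 higher and 2 lower of 30, at medians of -0.045 and 0.085 over 4 lineages and of 0.71 and -1.28 in R1. Of 8 small noncoding RNA genes 3 were lower over 4 lineages, at a median of 2.50 in R1 and -0.78 to 0.29 in the others. Of blood markers 0 of 3 and of endothelial, muscle and fibroblast markers 2 higher and 2 lower of 9 passed over 4 lineages in limma, with 1 and 5 at an unadjusted p under 0.05.

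Whether the change in treated lineages differed from that in DMSO was tested on 1 log2 change per lineage. With all 8 lineages 0 of 14565 genes passed in limma (0%), with 552 under 0.05 before adjustment. Nearest to passing were CRACD, BMP6, TXNIP, TRG-AS1 and ZMIZ1 (higher change in treated lineages) and TMBIM1, BAMBI, CHRM2, TSPO and PFKFB3 (lower). DMSO lineages on their own gave 0 calls as well (1545 at an unadjusted p under 0.05). Without R1 and R8 together, an alternative added after the data were seen, 621 genes differed between arms (4.26%), 361 with a higher (2.48%) and 260 with a lower change in treated lineages (1.79%). That fit rests on 4 treated and 2 DMSO lineages, and leaving out R1 or R8 alone gave 0 calls in limma (1382 and 1383 genes at an unadjusted p under 0.05).

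The 5 largest higher differences without R1 and R8 were those of EGFR (5.34), the glutamate transporter gene SLC17A8 (2.39), RNF150 (2.32), C1QTNF2 (2.27) and MOB3B (1.96). For EGFR, the libraries left out include treated R1, which stayed at the floor, and R8 in DMSO, which was well above it at time point 4. Its difference therefore depends on that choice. Largest among the lower were the histone genes H4C11 (-3.96) and H4C12 (-3.76) and the mitochondrial ND6 (-3.20), MTATP6P1 (-2.99) and ATP6 (-2.92). Of the 13 mitochondrially encoded genes 12 passed as lower in this fit, against 1.79% of all genes. The histone list, which does not hold H4C11 or H4C12, had 0 of 21 lower in limma (2 at an unadjusted p under 0.05). The part of RNA quality in these differences was not tested. MTATP6P1 is a nuclear copy of ATP6 and can share its reads. Of the 27 genes named from the 5-lineage fit, 9 passed here, and 48 of all 180 did. This fit reuses the changes of R3, R4, R6 and R7 that chose those genes, so their direction is no separate evidence. The 9 were C1QTNF2, ACSS1 (1.80), NEUROD6 (1.70), REEP1 (1.58), BMP6 (1.55), TXNIP (1.15), CRACD (1.01) and NOPCHAP1 (0.90) with a higher change and DDB2 (-1.19) with a lower one. HRK (1.48, adjusted p = 0.0526) and NR4A1 (-0.78, adjusted p = 0.248) did not. In DMSO, TXNIP was itself higher at time point 2 than at time point 1 in R8, R9 and R10. It was lower than at time point 1 in R8 and R9 at time point 4. The change of R9 averages time points 2 and 4 and that of R10 uses time point 2 only. The size of the TXNIP difference thus depends on the DMSO time points that enter.

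The treated libraries outside the pairs, R2 at time point 1 and R5 at time point 3, were not used in the fit. The difference between these 2 libraries had the sign of the call for 94 of the 96 genes higher over 5 lineages (97.9%) and 79 of the 84 lower (94%), whereas R5 lay above R2 for 56.3% and below it for 43.6% of all genes tested. For calls over 4 lineages the shares were 95.6% of 2021 and 91.9% of 1779. As examples, HRK read 111 in R2 and 421 in R5, DDB2 815 and 421, FOS 6465 and 276, and EGFR 0.0177 and 13.7. KRT17, by contrast, read 112 and 122.

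Levels after the next EC (time point 4) and VDC (time point 5) courses were known for 7 treated lineages. CRACD had a median of 92.4 at time point 1, 309 at time point 3, 452 at time point 4 and 554 at time point 5. HRK had medians of 85.1, 390, 291 and 476, ranging from 47.9 to 789 at time point 5. TXNIP had medians of 1849 at time point 3, 1221 and 1016. FOS had medians of 913 at time point 3, 1143 and 2619, and SOCS3 of 51.0, 83.9 and 486, with a highest value of 5287 at time point 5. DDB2 stood at medians of 351, 450 and 449, below the 839 of time point 1. These later values were not tested here, and medians of time points 4 and 5 cover 7 lineages against 5 at time points 1 and 3.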

How the data were processed

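The authors deposited 1 table of quantile-normalized counts per gene (36233 genes, 73 libraries), treated here as a signal; how it was normalized is not given in the sources used here. Reads were handled with STAR, featureCounts and GRCh38, per the submitters' processing notes, and RNA came from an AllPrep extraction, per the labels' protocols. The column of treated R1 at time point 1 sums to 13583520 and that of R8 in DMSO at time point 1 to 13582508, so column totals are not identical. Changes were taken within a lineage, and depth is unknown.

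Values were log2-transformed with a pseudocount of 1, and 14565 genes with a mean of at least 10 over all libraries were fitted with limma 3.58.1 in R 4.3.3 (trended variance, lineage as block, Benjamini-Hochberg threshold 0.05). The main fit has 4 residual degrees of freedom and the fit without R1 has 3. Fold changes of low genes are understated on this scale. Adjusted p-values in the text come from limma. DMSO changes are the mean of time points 2 and 4 minus time point 1, or time point 2 minus 1 for R10. Procedures were tested on simulated data.

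The pairing comes from the labels, where a lineage number marks 1 culture. Deviations of the same lineage at both time points correlated at -0.143 to 0.0247 across genes (mean -0.0601), against a mean of 0.011 between different lineages, so the data themselves show no pairing. The labels name replicates of 1 line, so p-values measure the spread between these cultures only.

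The members and the 33 gene lists were chosen with earlier results of these data known. Named genes were the 10 largest changes (mean of at least 50) and 5 smallest p-values per direction, up to 3 called genes of each list or its smallest p, 13 genes of interest, and the 5 extremes of the difference to DMSO. The same rule was applied to the fit without R1 after its values were seen. Other genes named, such as FAS, BTG2, EGR2 and the Ewing sarcoma markers, were chosen after their values were seen. Some genes that the rule named are not reported here. Promoters are from RefSeq (GRCh38.p14). Alternatives changed the block, pseudocount, filter, weights, centring and libraries.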

Additional observations from a re-analysis of the deposited data

Results flagged for a closer look

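Over the 5 treated lineages, 23 of 142 values (8 of 33 list medians and 15 of 108 gene changes) had 1 lineage far from the others by Dixon's test, and in 20 of the 23 it was R1. Chance flags about 1 in 20 independent groups, but these values share libraries, lists overlap with genes, and many genes were chosen by their change, so that rate cannot be set against the count. For lists, R1 stood at a median log2 change of -1.57 for G2/M genes, -1.87 for S phase genes, -0.31 for topoisomerases, 0.71 for ATF4 genes, -1.28 for cholesterol genes, 3.12 for mitochondrially encoded genes and -1.31 for epithelial markers. R7 stood at 0.29 for NF-kB genes.

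Among proliferation genes, the log2 change in R1 was -2.33 for AURKB, -2.11 for E2F1, -1.46 for LIG1, -2.38 for MKI67 and -1.40 for TOP2A. Among tubulins it was -1.43 for TUBA4A and -1.28 for TUBB, where R3, R4, R6 and R7 were above 0. It was 2.90 for H4C11 and 2.31 for H4C12, against values below -2.3 in those 4 lineages. R1 also stood apart at 0.47 for ABCC1, -0.58 for FLI1, 0.21 for HLA-E and 2.63 for SLC7A11. BTG3-AS1 was lowest in R3 (-2.45), and NOPCHAP1 was lowest in R6 (0.52).

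The change in treated lineages differed from that in DMSO lineages for 621 genes once R1 and R8 were both left out, by limma's test of the difference. The differences were 5.34 for EGFR, 2.39 for SLC17A8, 2.32 for RNF150, 2.27 for C1QTNF2 and 1.96 for MOB3B, and -3.96 for H4C11, -3.76 for H4C12, -3.20 for ND6, -2.99 for MTATP6P1 and -2.92 for ATP6 on the log2 scale. That of EGFR depends on leaving out R1, at the floor, and R8, well above it in DMSO at time point 4.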

How the results depend on the processing

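The count of 180 genes (96 higher, 84 lower) moved with several choices. With no replicate block it was 629 (324 and 305), and 152 of the 180 were among them. With all treated libraries of both time points unpaired it was 1813 (934 and 879), with array weights 3690 (1964 and 1726), with a mean of at least 50 it was 290 (154 and 136), and with no filter 0 (0 and 0; limma, 3842 at an unadjusted p under 0.05). Leaving out 1 lineage gave 0 to 3800 genes (0 to 2021 higher, 0 to 1779 lower). Pseudocounts of 0.1 and 10, robust variance and centring gave 179 to 188.

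The difference to DMSO was 0 in limma except without R1 and R8 (621), with 552 genes at an unadjusted p under 0.05 in the fit of all lineages. DMSO lineages alone gave 22 calls with time point 5, 474 without R1 and R8, and 0 to 56 with 1 lineage left out. The cause of these shifts was not tested.

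Genes that were not called turned direction in some settings. Leaving out 1 lineage moved FLI1 from -0.12 to 0.072, NR0B1 from -0.0019 to 0.086, TUBB from -0.18 to 0.22, ABCC1 from -0.10 to 0.045 and SLFN11 from -0.11 to 0.0014. Array weights gave 0.055 for FLI1, 0.18 for TUBB and -0.087 for ABCC1, and the unpaired fit -0.029 for ABCC1.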
